A study of Mus musculus with 12 samples.

Results

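The Serpina1 and Serpina3 genes of the mouse encode secreted protease inhibitors of serpin clade A. The 10 members described here, Serpina1a to Serpina1e and Serpina3c, Serpina3g, Serpina3k, Serpina3m and Serpina3n, were chosen by gene name from 57180 genes of the deposited tables, and all 10 passed the filter on low counts among 19350 genes tested. RNA came from whole livers of 12 mice in 4 groups, with 3 females and 3 males of each of the genotypes that the labels call Het and KO. Every mouse of both genotypes lacked Csa (Ercc8), a transcription-coupled repair gene, and every mouse had received AAV9-CSA, a vector with a human CSA cDNA behind a ubiquitous promoter, injected into the brain ventricles of newborns. The KO group consisted of CX mice killed at the humane endpoint. Het littermates of matched age, which showed no disease, served as controls. Ages of the single mice are not given in the sources used here. Sickness at the endpoint and genotype cannot be told apart in this design. The results text describes CX mice as lacking Xpa as well, whereas the methods write KO as Csa-/- Xpa+/+ and Het as Csa-/- Xpa+/-. Xpa was lower in each KO liver than in each Het liver, at 0.992 to 1.83 CPM (normalized counts, scaled to 1000000 per library) against 3.10 to 6.34 CPM. Its log2 fold change was -1.83 (standard error, SE, 0.163, adjusted p = 4.15e-05 by edgeR's quasi-likelihood test). Ercc8 was at 22.9 ± 8.81 CPM in KO livers and at 7.16 ± 1.40 CPM in Het livers (SD, n = 6), and the source of these reads was not tested.

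A serpin inhibits a protease by offering an exposed loop, the reactive center loop, as bait. When the protease cuts this loop, the serpin folds the cut end into its own body and traps the enzyme. Alpha-1 antitrypsin is made by hepatocytes and released into the blood, where its main known target is neutrophil elastase. Mice encode it in the Serpina1 copies, whose loops differ in sequence. The target of each copy was not tested, so a change in a single copy cannot be read as a change in elastase inhibition. The mouse Serpina3 genes are the expanded counterpart of a single human gene for alpha-1 antichymotrypsin, an acute phase protein, and their loops differ so that their targets differ. In bulk liver RNA, fewer hepatocytes and less of a transcript per hepatocyte cannot be told apart.

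All 10 members lie on chromosome 12 (GRCm39, GENCODE M39 annotation), from Serpina1b (ENSMUSG00000071178, minus strand, 103694413 to 103796632) to Serpina3n (ENSMUSG00000021091, plus strand, 104372810 to 104380597). The Serpina1 copies are on the minus strand. Serpina1d (103729614 to 103739899) lies within the annotated span of Serpina1b, and the span of Serpina3m (104304745 to 104361078) overlaps that of Serpina3k (104303391 to 104314397). The 1239 coding bases of the 5 Serpina1 copies were 96.3% to 98.5% identical between any pair. Identity was 91.5% between Serpina3k and Serpina3m, 89.2% between Serpina3c and Serpina3m, and 83.3% to 85.6% between the other pairs of Serpina3c, Serpina3k, Serpina3m and Serpina3n. The annotated coding region of Serpina3g was shorter, at 744 bases. Stretches of 150 coding bases, about a read's length, were found in no other Serpina gene for 46.9% of starts in Serpina1a, 46.9% in Serpina1c, 75.8% in Serpina1b, 77.0% in Serpina1d and 90.1% in Serpina1e. That share was 99.5% or more in the Serpina3 members. The deposited counts of the Serpina1 copies therefore include reads that the authors' software divided among near-identical transcripts, and the error of that division was not measured here. The counts of all 10 members were more than 1e-06 from a whole number in each of the 12 livers, although those of Serpina3c lay close to whole numbers.

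The loop that meets the protease is shown because the Serpina1 copies differed more there than over the rest of their coding bases. The 60 bases that start at the hinge codons were read from GRCm39, and 13 of them (21.7%) varied among the 5 copies, against 73 of the other 1179 coding bases (6.19%). They are exonic coding bases at chr12:103820030-103820089 (Serpina1a), chr12:103694597-103694656 (Serpina1b), chr12:103861367-103861426 (Serpina1c), chr12:103730035-103730094 (Serpina1d) and chr12:103913373-103913432 (Serpina1e), all on the minus strand. Capitals mark positions at which the 5 copies are not all alike.
Serpina1a: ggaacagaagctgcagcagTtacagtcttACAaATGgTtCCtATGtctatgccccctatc
Serpina1b: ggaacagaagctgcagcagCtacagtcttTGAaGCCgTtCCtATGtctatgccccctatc
Serpina1c: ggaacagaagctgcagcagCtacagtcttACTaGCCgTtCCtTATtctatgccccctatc
Serpina1d: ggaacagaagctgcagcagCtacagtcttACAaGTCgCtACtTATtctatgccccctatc
Serpina1e: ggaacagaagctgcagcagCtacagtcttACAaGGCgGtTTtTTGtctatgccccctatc

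For the Serpina3 members on which the results turn, the same 60 bases lie on the plus strand at chr12:104311528-104311587 (Serpina3k), chr12:104360028-104360087 (Serpina3m) and chr12:104379707-104379766 (Serpina3n). Capitals mark the 32 positions that varied among Serpina3c, Serpina3k, Serpina3m and Serpina3n. No hinge was found in the annotated Serpina3g coding region.
Serpina3k: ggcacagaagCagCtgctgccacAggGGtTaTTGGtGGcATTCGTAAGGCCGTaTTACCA
Serpina3m: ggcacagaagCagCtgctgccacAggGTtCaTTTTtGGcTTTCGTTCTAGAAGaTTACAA
Serpina3n: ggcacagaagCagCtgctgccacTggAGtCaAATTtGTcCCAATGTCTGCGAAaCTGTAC

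The Serpina1 copies also have a near-identical stretch of 56 bases in their proximal promoters. It is shown because 1 of the copies was called lower in KO livers and the others were not called. Outside this stretch the promoters were compared only for the short motifs named below. In the RefSeq promoter table (GRCm38.p6, 250 bases before to 50 after the start), 8 of the 10 members had an entry. The letters GTTAAT, part of the motif of the hepatocyte factor HNF1, occurred on either strand in 6 of these 8, the 5 Serpina1 copies and Serpina3c, and in 7.10% of all 32851 promoters. The 56 bases around this match were the same in Serpina1a, Serpina1b, Serpina1c and Serpina1e, and differed at 1 base in Serpina1d. The match is in capitals, and the windows are chr12:103904962-103905017 (Serpina1c) and chr12:103773634-103773689 (Serpina1d), minus strand, GRCm38.p6, a different build from that of the gene spans.
Serpina1c: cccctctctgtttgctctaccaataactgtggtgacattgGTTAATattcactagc
Serpina1d: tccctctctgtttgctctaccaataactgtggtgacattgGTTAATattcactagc
The letters TTGCNNAA, a C/EBP core, occurred in Serpina1a, Serpina1b, Serpina1d and Serpina1e but not in Serpina1c, and in 10.8% of all promoters. The STAT letters TTCNNNGAA occurred in Serpina3g alone among the 8 members, and in 8.30% of all promoters. The members without an entry are among Serpina3k, Serpina3m and Serpina3n. Their promoters were not searched, so they cannot be said to lack any of these letters. A match of letters is a description and not a bound site.

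Levels between genes are compared as TPM, which is scaled for transcript length, and values of single livers are given in the order of the mouse numbers (Het_F_111, Het_F_115 and Het_F_126, then Het_M_119, Het_M_125 and Het_M_137, then KO_F_108, KO_F_112 and KO_F_123, then KO_M_118, KO_M_122 and KO_M_136, with F for female and M for male). In Het females the order was Serpina3k at 2166 ± 438 TPM (SD, n = 3 mice, as for all group values here), Serpina1b at 1762 ± 131, Serpina1c at 1572 ± 57.9, Serpina1a at 1318 ± 28.2, Serpina1d at 1158 ± 40.05, Serpina3m at 218 ± 83.7, Serpina3n at 90.4 ± 11.6, Serpina1e at 68.3 ± 97.3, Serpina3g at 5.10 ± 2.29 and Serpina3c at 0.0378 ± 0.0176. The livers of Serpina3k and Serpina1b overlapped, as did those of Serpina1b and Serpina1c those of Serpina3n and Serpina1e and those of Serpina1e and Serpina3g, whereas the other neighbors in this order did not overlap. In Het males Serpina3k (2945 ± 251) and Serpina1c (2417 ± 344) led, and Serpina1e was at 1435 ± 285, between Serpina1b (1632 ± 111.5) and Serpina1a (1249 ± 32.8). Serpina3c stayed at or below 0.132 TPM in every liver, with 3.00 to 12.0 estimated reads, so that its fold changes rest on very few reads.

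**Figure D1:**
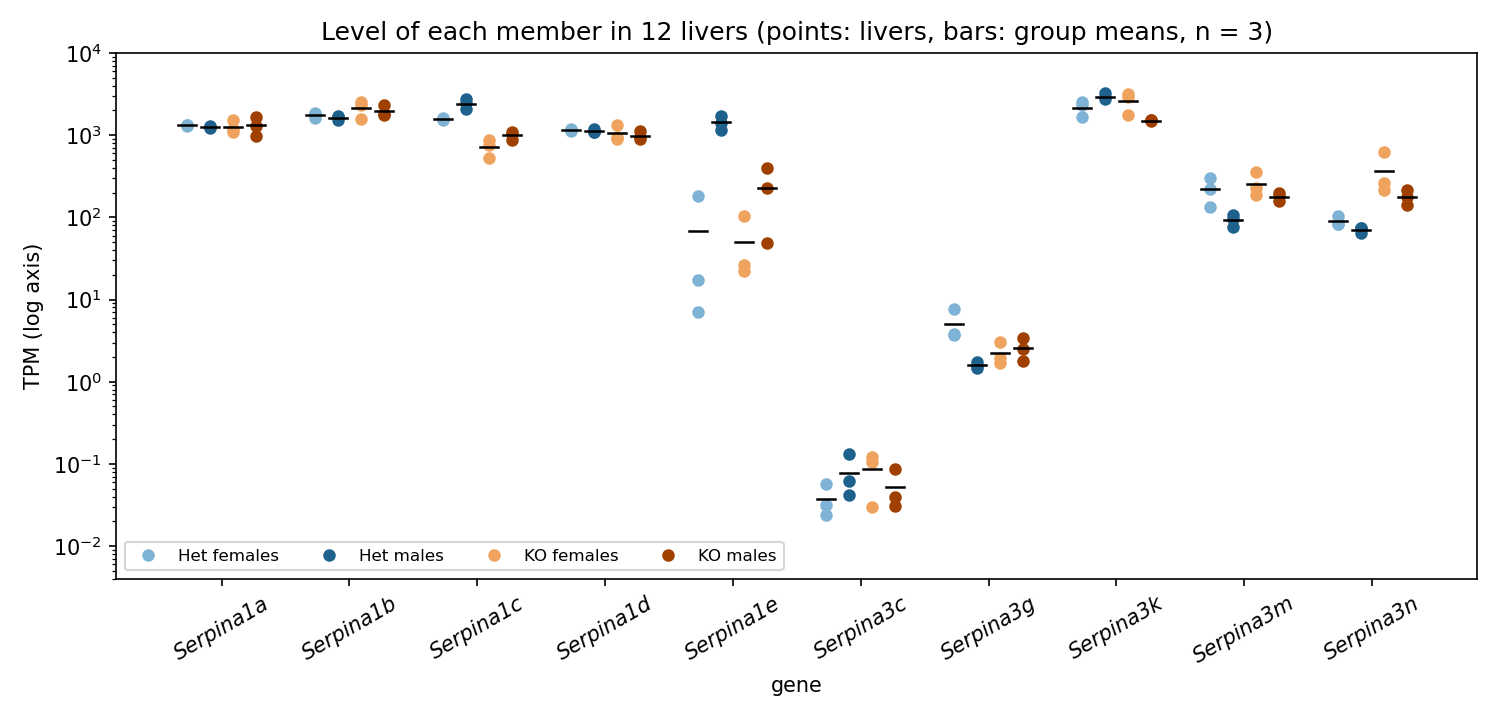
TPM (log axis) of the 10 members (x axis) in 12 livers, with points for single livers, colors for the 4 groups and black bars for group means (n = 3). Serpina1c lies lower and Serpina3n higher in the KO livers of both sexes, and Serpina1e is at 1167 TPM or more in Het males and at 403 TPM or less in all other livers.

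Differences were tested on the rounded estimated counts by edgeR's quasi-likelihood test, adjusted over all 19350 genes by the Benjamini-Hochberg method, and genes with an adjusted p under 0.05 were called. For KO versus Het over both sexes, 2 of 10 members were called, Serpina3n higher and Serpina1c lower, beside 22.4% of all genes tested (12.2% higher and 10.2% lower). The share of members called was thus close to that of all genes. The median log2 fold change was -0.06 over the 10 members and 0.02 over all genes. In females 1 of 10 members was called higher (all genes 5.94%) and 1 lower (all genes 5.10%). In males 3 of 10 members were called (all genes 7.45%), 1 higher (4.47%) and 2 lower (2.98%). KO and Het livers did not overlap in normalized counts (CPM) for 2 members over both sexes (all genes 9.35%), for 3 members in females (all genes 30.4%) and for 7 members in males (all genes 32.1%).

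Serpina3n, an inhibitor of granzyme B and of chymotrypsin-like proteases, was the member that rose. It stood at 83.7, 104 and 83.8 TPM in female Het livers, 74.5, 73.2 and 65.3 in male Het livers, 628, 265 and 214 in female KO livers and 179, 143 and 216 in male KO livers. Each KO liver lay above each Het liver, and KO_F_108 was the highest. KO livers had 3.136 times the Het level (log2 fold change 1.65, SE 0.212, adjusted p = 4.70e-04). Within the sexes it was 4.18-fold in females (log2 2.06, SE 0.304, adjusted p = 0.00364) and 2.36-fold in males (log2 1.24, SE 0.297, adjusted p = 0.0280). Without KO_F_108 the log2 fold change in females was 1.54 and was still called. In males the call was lost without Het_M_119 (adjusted p = 0.0729), Het_M_125 (0.0911), Het_M_137 (0.102), KO_M_118 (0.0792) or KO_M_136 (0.0932), with log2 fold changes between 1.09 and 1.29, and with no filter on low counts (0.0568). The difference between the sexes in this effect was -0.83 on the log2 scale (adjusted p = 0.568) and was not called.

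Serpina1c was the member that fell. It stood at 1516, 1567 and 1632 TPM in female Het livers, 2753, 2066 and 2431 in male Het livers, 527, 885 and 769 in female KO livers and 885, 1024 and 1099 in male KO livers. No KO liver reached the lowest Het liver in either sex. The log2 fold change was -1.19 over both sexes, that is 2.28-fold lower (SE 0.166, adjusted p = 7.27e-04). It was -1.01 in females (SE 0.234, adjusted p = 0.0215) and -1.36 in males (SE 0.236, adjusted p = 0.00622). In females the call was lost without Het_F_126 (log2 fold change -0.99, adjusted p = 0.0534) and with the females fitted alone (adjusted p = 0.0899). Many of this gene's coding stretches of read length occur in another Serpina1 copy, as given above, so its level depends on how shared reads were divided.

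Serpina1a, Serpina1b and Serpina1d were not called between KO and Het livers. Serpina1a stood at 1338, 1331 and 1286 TPM in female Het livers, 1282, 1216 and 1248 in male Het livers, 1091, 1533 and 1177 in female KO livers and 979, 1308 and 1654 in male KO livers. The KO livers spread to both sides of the Het livers, and the log2 fold change was 0.01 (SE 0.157, adjusted p = 0.967), with a sign that changed under other scalings. Serpina1b stood at 1858, 1815 and 1613 TPM in female Het livers, 1734, 1648 and 1513 in male Het livers, 2343, 2548 and 1577 in female KO livers and 1826, 1773 and 2312 in male KO livers. Its log2 fold change of 0.27 (SE 0.148, adjusted p = 0.206) was not called. Serpina1d stood at 1157, 1199 and 1119 TPM in female Het livers, 1191, 1094 and 1103 in male Het livers, 938, 1332 and 889 in female KO livers and 945, 892 and 1117 in male KO livers. Its log2 fold change was -0.17 (SE 0.144, adjusted p = 0.435), and the groups overlapped over both sexes. In males they overlapped in TPM but not in CPM, at 1606 to 1920 CPM in KO and 1940 to 2314 CPM in Het livers.

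Serpina1e varied widely between the livers. It stood at 7.07, 17.4 and 181 TPM in female Het livers, 1167, 1405 and 1734 in male Het livers, 26.1, 104 and 22.1 in female KO livers and 48.5, 227 and 403 in male KO livers. The 3 Het males lay above all other livers, and the 3 KO males overlapped with the females. In males the log2 fold change of KO versus Het was -2.75 (SE 1.22, unadjusted p = 0.0477, adjusted p = 0.203 by edgeR's quasi-likelihood test). Over both sexes it was -1.52 (SE 0.824, adjusted p = 0.216), and neither was called. In females it was -0.29 (adjusted p = 0.896), and without Het_F_126, the highest of its group, it was 2.20 (adjusted p = 0.200).

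**Figure D2:**
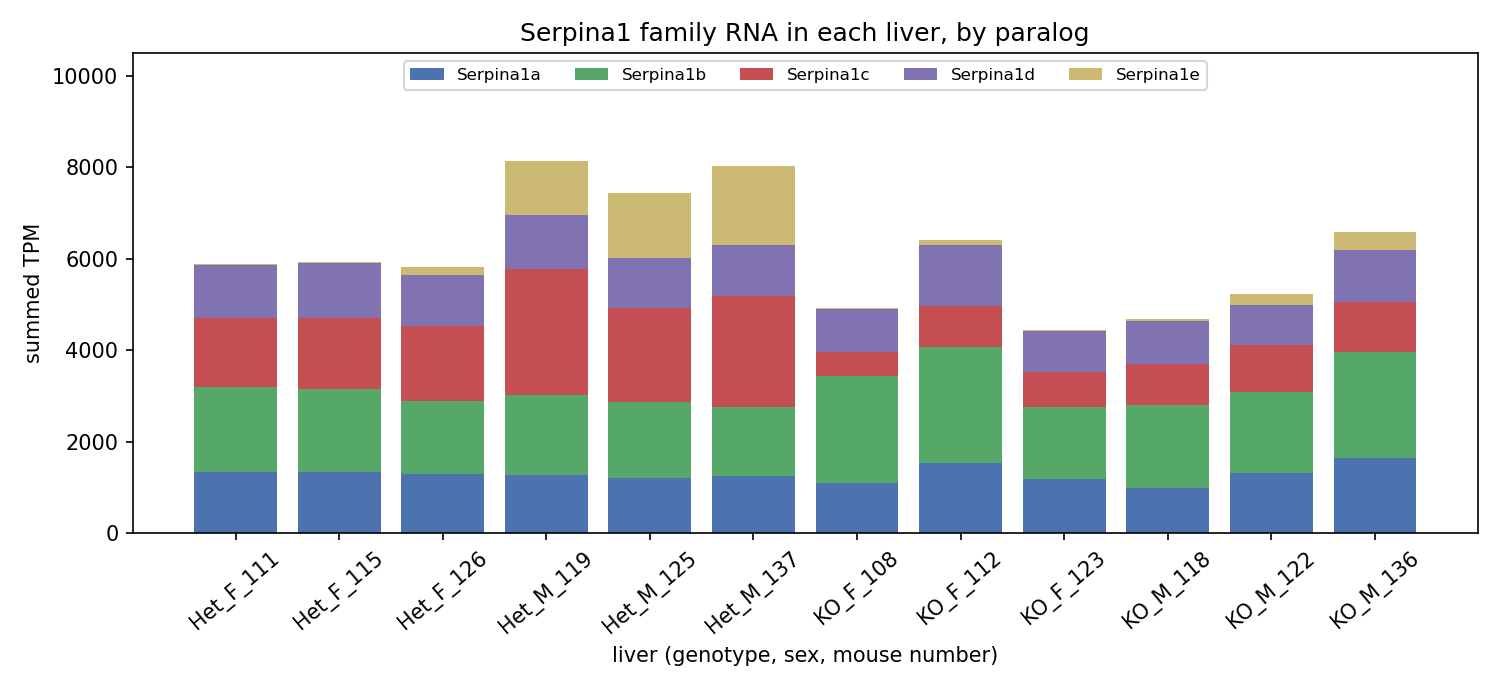
Summed TPM of the Serpina1 family in each of the 12 livers (x axis: genotype, sex and mouse number), stacked by paralog. The bars of the Het males reach 7430 to 8128 TPM and hold the largest blocks of Serpina1c and Serpina1e, and all other bars lie between 4434 and 6585 TPM.

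Summed over the 5 copies, Serpina1 RNA is less open to the division of shared reads. The sum was 5878 ± 49.98 TPM in female Het livers, 7862 ± 378 in male Het livers, 5253 ± 1024 in female KO livers and 5498 ± 980 in male KO livers. The Het males lay above all other livers, while the ranges of both KO groups spanned that of the Het females. The log2 ratio of the group means, KO over Het, was -0.35 over both sexes, -0.16 in females and -0.52 in males in TPM, against -0.37, -0.065 and -0.60 in CPM, and no test was run on the sums. The shares of the copies in the sum are given as a description. Serpina1c held 26.7% ± 1.13 of the summed TPM in Het females and 14.0% ± 3.32 in KO females, and 30.7% ± 3.05 in Het males and 18.4% ± 1.52 in KO males. Serpina1b held 29.96% ± 2.05 in Het females, 41.0% ± 6.08 in KO females, 20.8% ± 1.73 in Het males and 36.0% ± 2.65 in KO males. Serpina1e held 18.3% ± 3.66 in Het males and between 0.120% and 6.11% in each other liver. Serpina1a held 22.4% ± 0.354 in Het females and 24.2% ± 2.21 in KO females, and Serpina1d 19.7% ± 0.514 and 19.96% ± 0.880. In males Serpina1a held 15.9% ± 0.426 in Het and 23.7% ± 2.41 in KO livers, and Serpina1d 14.4% ± 0.556 and 18.1% ± 1.82. These shares are bound to add up, so a lower share of Serpina1c and Serpina1e raises those of the other copies.

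Serpina3k, a kallikrein-binding serpin and the most abundant Serpina3 member, was lower in KO males. It stood at 1678, 2522 and 2300 TPM in female Het livers, 3224, 2875 and 2737 in male Het livers, 2954, 3153 and 1749 in female KO livers and 1471, 1531 and 1522 in male KO livers. The 3 KO males lay close together, below every other liver in TPM, and below the 3 Het males also in CPM, whereas KO and Het females overlapped. In males the log2 fold change was -1.06, that is 2.09-fold lower (SE 0.248, adjusted p = 0.0251). In females it was 0.36 (SE 0.246, adjusted p = 0.366), and over both sexes -0.35 (adjusted p = 0.166). The difference between the sexes was -1.42 on the log2 scale (SE 0.348, unadjusted p = 0.00156, adjusted p = 0.257 by edgeR's quasi-likelihood test) and was not called. It was called by DESeq2 (-1.43, adjusted p = 0.00911) and without KO_F_123 (-1.64, adjusted p = 0.0416). The call in males was lost without Het_M_119 (adjusted p = 0.0783), Het_M_125 (0.0713), KO_M_118 (0.0867), KO_M_122 (0.0632) or KO_M_136 (0.0763), with log2 fold changes from -1.09 to -0.97, and with no robust estimation (0.0503).

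Serpina3m is the closest copy of Serpina3k among the members by coding sequence. It stood at 219, 302 and 135 TPM in female Het livers, 94.2, 105 and 76.5 in male Het livers, 356, 226 and 189 in female KO livers and 180, 157 and 198 in male KO livers. The KO males lay above the Het males, and the female groups overlapped. The log2 fold change was 0.57 over both sexes (SE 0.193, adjusted p = 0.0514) and 0.85 in males (SE 0.274, adjusted p = 0.0824), and neither was called. Over both sexes it was called by DESeq2 (adjusted p = 0.0299), with library size only (0.0412), with upper quartile scaling (0.0467), with at least 10 reads in every liver (0.0454), without Het_F_115 (log2 fold change 0.71, adjusted p = 0.0207) and without KO_F_123 (0.65, adjusted p = 0.0337). In males it was called by DESeq2 (0.0421), with library size only (0.0494), with the males fitted alone (0.0204) and without Het_F_126 (0.0480).

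Serpina3g, which is known as an inhibitor of cysteine cathepsins in lymphocytes and macrophages, was scarce in these livers. It stood at 3.85, 7.74 and 3.71 TPM in female Het livers, 1.72, 1.48 and 1.57 in male Het livers, 1.69, 1.97 and 3.08 in female KO livers and 2.50, 3.41 and 1.76 in male KO livers. All KO females lay below all Het females and all KO males above all Het males. The log2 fold change was -1.03 in females (SE 0.340, adjusted p = 0.0696) and 0.77 in males (SE 0.344, adjusted p = 0.196), and neither was called. In females it was called by DESeq2 (adjusted p = 0.0305), by limma on log2(TPM + 0.1) (adjusted p = 0.0494) and without KO_F_123 (log2 fold change -1.33, adjusted p = 0.0384). Serpina3c, a further Serpina3 paralog, stood at 0.0318, 0.0576 and 0.0239 TPM in female Het livers, 0.0622, 0.0413 and 0.132 in male Het livers, 0.121, 0.0298 and 0.105 in female KO livers and 0.0864, 0.0392 and 0.0306 in male KO livers. These livers overlapped in both sexes, and its log2 fold change was 0.21 (SE 0.297, adjusted p = 0.645).

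**Figure D3:**
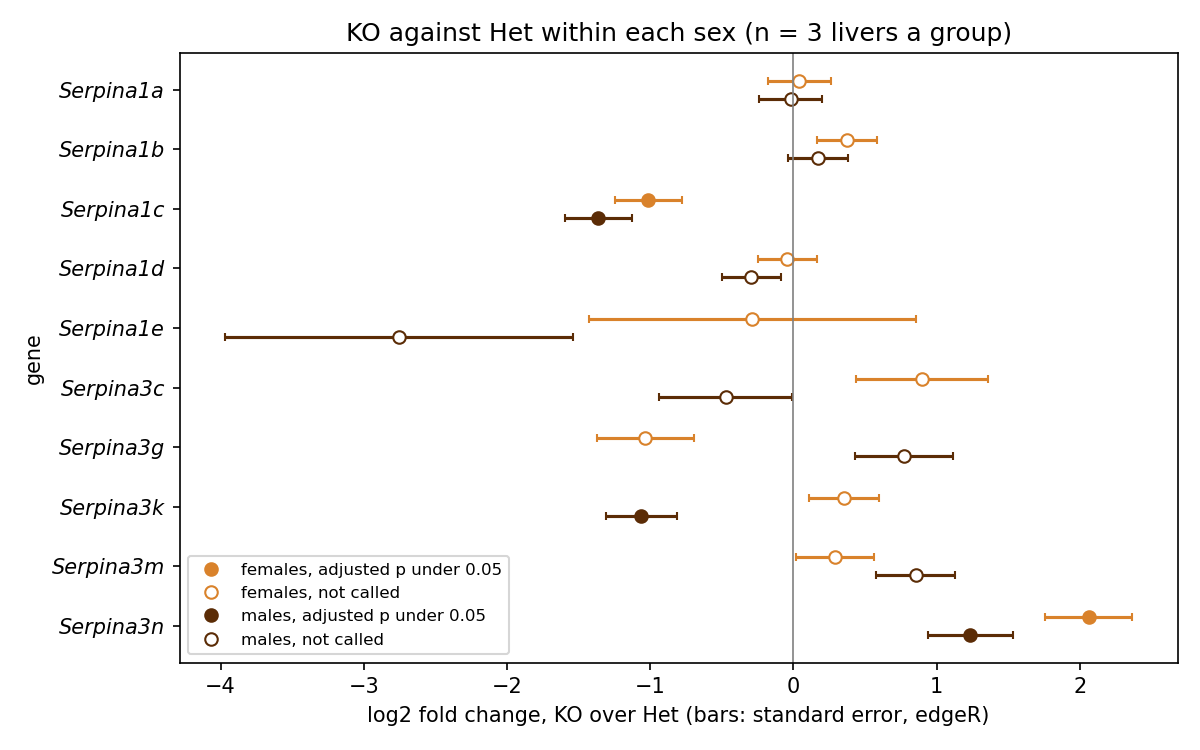
Log2 fold change of KO over Het (x axis) for each member, in females and in males, with standard errors (SE) from edgeR, filled points where the adjusted p was under 0.05 and n = 3 livers a group. Serpina1c is lower and Serpina3n higher in both sexes, and Serpina3k is called in males (-1.06) and not in females (0.36).

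Males and females were also compared. The shares of all genes given here are those of edgeR's test, and those of DESeq2 and limma are not given. Over both genotypes no member was called by edgeR's quasi-likelihood test (all genes 1.02%). By the same test 5 members had an unadjusted p under 0.05, as did 2678 of all 19350 genes. DESeq2 called 3 (Serpina1c, Serpina1e and Serpina3m). Among Het mice, Het males and Het females did not overlap in CPM for 7 members (all genes 17.2%), with Serpina1a, Serpina1c, Serpina1d, Serpina1e and Serpina3k higher in males and Serpina3g and Serpina3m lower. In TPM, Serpina1a was instead lower in each Het male than in each Het female, and Serpina1d overlapped. Serpina3n, which overlapped in CPM, was at 65.3 to 74.5 TPM in Het males and 83.7 to 104 TPM in Het females. None of these was called by edgeR's quasi-likelihood test (all genes 0.920%), and 5 had an unadjusted p under 0.05, as did 2129 of all 19350 genes. DESeq2 called 4 and limma on log2(TPM + 1) called 1. Serpina1e was 24.0-fold higher in Het males (log2 4.58, SE 1.32, adjusted p = 0.197), and Serpina3g 2.79-fold lower (log2 -1.48, SE 0.346, adjusted p = 0.0820). Serpina1c was 1.78-fold higher in Het males (adjusted p = 0.161) and Serpina3m 2.04-fold lower (adjusted p = 0.138). Among KO mice no member was called by edgeR's quasi-likelihood test (all genes 0.0517%) or DESeq2. By edgeR's test 2 members, Serpina3k and Serpina3n, had an unadjusted p under 0.05, as did 2445 of all 19350 genes. For the difference between the sexes in the KO effect, edgeR's quasi-likelihood test called no member (all genes 0.0465%). By this test 2 members, Serpina3g and Serpina3k, had an unadjusted p under 0.05, as did 1795 of all 19350 genes, and DESeq2 called both members. Over both genotypes, Serpina1e was called without Het_F_126 (log2 4.59, adjusted p = 0.0212), as was Serpina3m (log2 -0.89, adjusted p = 0.0256), and Serpina1c was called without KO_F_112 (log2 0.78, adjusted p = 0.0464).

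Of 15 further clade A serpins, 11 were tested, 1 was called higher (all genes 12.2%) and 2 lower (all genes 10.2%), with a median log2 fold change of -0.22. The share called was close to that of all genes, and 1 was called lower with at least 10 reads in every liver. Serpina12 (vaspin) was at 2.86 to 8.51 CPM in female Het livers, 26.1 to 55.5 in male Het livers, 0.465 to 1.66 in female KO livers and 0.987 to 2.33 in male KO livers. Its log2 fold change was -3.33 (SE 0.372, adjusted p = 3.24e-04). Serpina9, a serpin known from B cells, fell by 3.43 on the log2 scale (adjusted p = 5.51e-04), a fitted value that depends on the prior count, since it stood at most at 3.77 CPM in Het livers and 0.0679 CPM in KO livers. Serpina10, the protein Z-dependent inhibitor of clotting factors, rose from 158 ± 17.5 to 211 ± 25.5 CPM (n = 6, log2 0.42, adjusted p = 0.0198), a call that was lost without Het_F_111 (adjusted p = 0.0521), Het_M_119 (0.0541), Het_M_137 (0.0525) or KO_M_118 (0.0594). Serpina6 (corticosteroid-binding globulin) ranged from 7.34 CPM in KO_F_108 to 742 CPM in KO_F_112, and its log2 fold change of -0.70 (SE 0.791, adjusted p = 0.564) was not called, but was called without KO_F_112 (-2.21, adjusted p = 0.0169). Serpina7 (thyroxine-binding globulin, on another chromosome) was at 48.6 ± 25.5 CPM in Het and 24.3 ± 16.0 CPM in KO livers (adjusted p = 0.176). Serpina11 was at 34.7 ± 5.23 CPM in Het and 33.2 ± 3.91 CPM in KO livers (adjusted p = 0.741). The remaining tested neighbors, Serpina3b, Serpina3f, Serpina3h, Serpina3i and Serpina5 (protein C inhibitor), stayed at or below 6.38 CPM and were not called. Serpina4-ps1, a pseudogene named after its values were seen, was at 45.2 to 134 CPM in Het males, 0.357 to 4.001 in Het females and at most 0.437 CPM in the KO livers (log2 fold change -5.91, adjusted p = 5.15e-04). The KO livers held 2 to 15 estimated reads, and the fitted value ran from -6.32 to -3.32 under other settings with all mice kept. Het_F_115, at 0.357 CPM, overlapped with the KO livers.

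**Figure D4:**
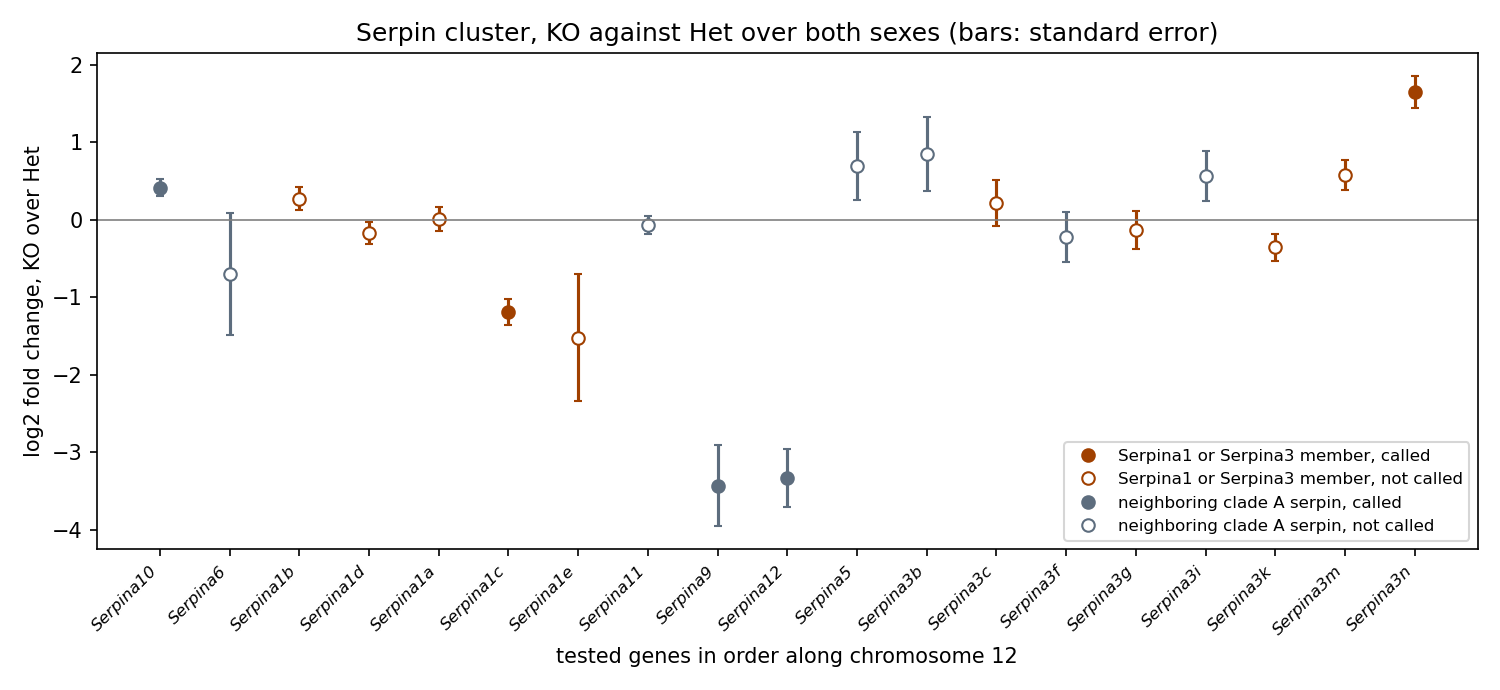
Log2 fold change of KO over Het, both sexes, with standard errors (SE) from edgeR (y axis) for the tested protein-coding serpins in their order along chromosome 12 (x axis), with filled points where the adjusted p was under 0.05. Serpina9 and Serpina12 lie lowest at -3.43 and -3.33, and Serpina3n lies highest at 1.65.

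Hepatocytes make many other inhibitors and acute phase proteins, and lists of these were set beside the members. The counts are over both sexes, beside 12.2% of all genes called higher and 10.2% lower. Of 20 positive acute phase genes, all tested, 15 were called higher and 1 (Saa4) lower in KO livers, with a median log2 fold change of 0.79 beside 0.02 for all genes. Lcn2 (lipocalin 2) rose from 7.09 ± 7.48 to 147 ± 38.8 CPM (log2 4.68, adjusted p = 2.77e-04), Orm2 (an orosomucoid) from 12.1 ± 7.84 to 125.5 ± 40.2 CPM (log2 3.48, adjusted p = 5.12e-05) and Hpx (hemopexin) from 1903 ± 212 to 3765 ± 380 CPM (log2 0.98, adjusted p = 3.52e-04). The log2 fold change of Serpina3n, 1.65, lay within the range of these genes, and no Serpina1 copy was called higher. Of 8 negative acute phase genes 3 were called higher (Ahsg, Fetub and Trf) and 1 lower (Ttr, transthyretin, log2 -0.81, adjusted p = 0.00422), and 2 were called lower without KO_F_112. The call of Trf was lost with no robust estimation (adjusted p = 0.0810). Of 13 tested genes of interleukin-6, STAT3 and NF-kB signaling 3 were called higher and none lower. Stat3 rose by 1.04 on the log2 scale (adjusted p = 5.42e-04), Il1r1 by 1.27 (adjusted p = 0.00949) and Socs3 by 1.64 (adjusted p = 0.0213), the last not called with the additive model (adjusted p = 0.145), with no filter on low counts (0.0526) or without Het_M_125 (0.0515). In females these 3 were called higher (all genes 5.94%), and in males 1, Stat3 (all genes 4.47%). Socs3 was at 6.65 ± 3.55 CPM in Het and 67.1 ± 26.7 CPM in KO females. In males it was at 22.7 ± 17.3 CPM in Het and 22.0 ± 3.98 CPM in KO livers. Il1r1 overlapped in males, at 27.6 to 70.4 CPM in Het and 47.6 to 79.2 CPM in KO livers.

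Among other inhibitors, 6 of 14 tested plasma protease inhibitors were called higher (all genes 12.2%) and 4 lower (all genes 10.2%). Their median log2 fold change was 0.31. The 4 became 2 without Het_F_126, Het_M_125 or KO_M_136 and 1 without Het_M_137 or KO_M_118. Itih3, an inter-alpha-inhibitor heavy chain, rose from 872 ± 161 to 2481 ± 652 CPM (log2 1.51, adjusted p = 1.45e-04) and Kng1 (kininogen) from 1434 ± 195 to 2671 ± 435 CPM (log2 0.90, adjusted p = 0.00141). Spink1, a trypsin inhibitor, stayed scarce, at 0.0312 ± 0.0519 and 0.443 ± 0.237 CPM (adjusted p = 9.12e-04). Of 14 tested serpins of other clades 3 were called higher and 4 lower (median -0.16), beside the same shares of all genes. The 4 became 2 under the additive model, and in males 0 were called lower (all genes 2.98%). Serpine2 (protease nexin 1) fell from 5.10 ± 2.72 to 1.04 ± 0.688 CPM (adjusted p = 0.00212), while Serpinf2 (antiplasmin) rose by 0.43 on the log2 scale (adjusted p = 0.00553) and Serpinb6a by 0.83 (adjusted p = 0.00214).

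Of 13 proteases that serpins of these families inhibit or that are related to them, 8 were tested. Over both sexes 2 were called higher (all genes 12.2%) and 1 lower (all genes 10.2%), with a median log2 fold change of 0.40. Prtn3 (proteinase 3, a target of alpha-1 antitrypsin) was at 0 to 0.0864 CPM in Het livers and at 2.63 to 10.9 CPM in KO livers, without overlap. Its fitted log2 fold change of 5.90 (adjusted p = 2.07e-07) depends on the prior count. Proteinase 3 is known from neutrophil granules. The neutrophil markers Ly6g, Mpo and Camp had at most 3 reads in every liver, of 10 neutrophil markers 4 were tested and 1 (S100a8) was called higher, and the summed level of the 10 was 1.63 to 6.58 CPM in Het and 3.02 to 6.04 CPM in KO livers. Klkb1 (plasma prekallikrein) fell from 332 ± 43.5 to 211 ± 52.2 CPM (adjusted p = 0.00527), and Ctsl (cathepsin L) rose from 373 ± 87.0 to 964 ± 758 CPM (adjusted p = 0.0189), a call lost with no filter on low counts (0.0605) and without Het_M_125 (0.0503).

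Genes for the making and export of secreted proteins were read over both sexes, beside 12.2% of all genes called higher and 10.2% lower. These shares are from the main edgeR fit. The shares under DESeq2 or without a mouse are not given, so counts under those settings have none beside them. Of 11 hepatocyte transcription factor genes none was called higher and 3 lower (median log2 fold change -0.45), with 5 lower by DESeq2. The 3 were Cebpa (-1.10, adjusted p = 5.86e-04), Nr1h4 (-1.03, adjusted p = 0.00127) and Foxa1 (-1.01, adjusted p = 0.00866). Of 15 genes for folding and export of secreted serpins none was called higher and 4 lower (median -0.38), while 7 were called lower by DESeq2, 7 without Het_M_119 and 9 without KO_F_112. In females 1 gene of this list, Edem2, named after its values were seen, was called higher (all genes 5.94%). Among these the chaperones Canx (-0.61, adjusted p = 0.00235), Hsp90b1 (-0.57, adjusted p = 0.00674) and Pdia6 (-0.55, adjusted p = 0.0114) had the smallest p. Of 13 growth hormone and glucocorticoid genes 3 were called higher and 2 lower (median 0.25). Ghr, the growth hormone receptor, fell by 1.39 on the log2 scale (adjusted p = 0.00873), Stat5b rose by 0.50 (adjusted p = 0.00405) and Fkbp5, a glucocorticoid-induced gene, rose by 1.22 (adjusted p = 0.00518). Within the sexes, Ghr and Fkbp5 were called in males and not in females, and Stat5b in females and not in males. Ghr overlapped in females, at 300 to 464 CPM in Het and 73.6 to 324 CPM in KO livers.

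The genes whose log2 CPM most resembled 3 patterns among the members over the 12 livers were looked up. They were Nrbp2 (Pearson r = 0.981), Man1a2 (0.976) and Lekr1 (0.974) for Serpina3n, Atp6v0d1 (0.910), Gm4211 (0.877) and Neat1 (0.865) for Serpina3k, and Clybl (0.970), Sdhb (0.923) and Cox5b (0.908) for the sum of the Serpina1 counts. These correlations are a description over livers of 4 groups, so shared differences between the groups enter them.

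The tissue matched its label. Marker calls are over both sexes unless a sex is named, beside 12.2% of all genes called higher and 10.2% lower. The 8 hepatocyte markers summed to 67669 to 89798 CPM in Het livers and to 88176 to 148169 CPM in KO livers, and 1 of them (Ttr) was called lower. Of other cell types, 4 of 6 monocyte and macrophage markers and 3 of 5 Kupffer cell markers were called higher, with summed levels of 4.29 to 10.9 against 11.4 to 21.1 CPM and of 81.7 to 227 against 123.5 to 386 CPM. Of 5 stellate cell markers 2, and of 5 sinusoidal endothelium markers 3, were called lower. Of 4 erythroid markers 3 were tested and 1 was called lower, and no cholangiocyte, T and NK cell or B and plasma cell marker was called. In females no Kupffer cell marker was called (all genes 5.94% higher and 5.10% lower), and in males no sinusoidal endothelium marker (all genes 7.45%). The part of these cell types in the results for Serpina3n and Serpina1c was not tested. Between 30044812 and 43634073 estimated counts per liver were assigned to genes.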

How the data were processed

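Total RNA of 12 mouse livers, depleted of ribosomal RNA, was sequenced by the authors as paired stranded reads. The authors aligned the reads with STAR 2.7.9a to GRCm39, with GENCODE M34, and deposited estimated counts per gene and TPM from Salmon 1.10.1. Of the deposited estimated counts 12.0% were not whole, and all were rounded here, and the deposited TPM were used for levels between genes. Groups came from the sample labels. Genes with at least 5 reads, scaled to library size, in at least 3 livers were tested with edgeR 4.0.16 in R 4.3.3 (TMM, quasi-likelihood F test, robust, prior count 2, a mean per group). The test, filter, prior count and robust setting follow the study's methods, whereas rounding and TMM were chosen here, so the fits may differ. Here 4330 of 19350 genes were called for genotype and 197 for sex. The study reported fewer of each at the same threshold, among slightly more genes tested. The shares of all genes given here are those of this fit. Alternatives were the other deposited estimated count tables, other filters and scalings, DESeq2 1.42.0, limma 3.58.1 on log2 TPM, and each mouse left out. Sex contrasts within a genotype were added after seeing the data. Members, lists and the naming rule were chosen with earlier results of these data known. The rule named the members, Xpa, Ercc8, tested clade A serpins, up to 3 called genes of smallest p per list, and the 3 genes most alike to each of 3 patterns. The fit was tested on simulated data. Replicates are separate mice. Sequences came from GENCODE M39 and RefSeq.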

Additional observations from a re-analysis of the deposited data

Results flagged for a closer look

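For Serpina3g, called in neither sex, the KO livers lay on opposite sides of the Het mean in the sexes. Each of the 3 KO females lay below the mean of the Het females (log2 fold change -1.03) and each of the 3 KO males above the mean of the Het males (0.77). The difference of the effects was 1.80 on the log2 scale, and edgeR's quasi-likelihood test of it gave an adjusted p of 0.335, over the threshold, while DESeq2 gave 0.0470. Het males and Het females already differed without overlap (1.48 to 1.72 against 3.71 to 7.74 TPM).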

How the results depend on the processing

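No paired analysis was run, because the labels give no litter or age by which KO and Het littermates could be paired. Scaling moved the median of all genes by less than 0.01 on the log2 scale. The genotype call of Serpina3n (log2 fold change 1.38 to 1.77) and that of Serpina1c (-1.31 to -1.08) held in all 26 alternatives run for each, mice left out included.

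The count of members called was 2 in females and was 1 with females fitted alone, 1 at an adjusted p under 0.01, 3 with DESeq2 and with limma on log2(TPM + 0.1), and 1 to 3 with a mouse left out. In males it was 3, and was 4 with DESeq2 and with library size only, 1 at an adjusted p under 0.01 and 1 to 4 with a mouse left out. For KO versus Het over both sexes it was 2, and was 3 with DESeq2, upper quartile scaling and library size only. It was 2 to 3 there with a mouse left out. For males versus females it was 0, and was 3 with DESeq2 and 0 to 2 with a mouse left out. For the interaction it was 0, and was 2 with DESeq2 and 0 to 1 with a mouse left out.

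The following uncalled values changed sign. Serpina1a was at -0.0025 with the length-scaled table, -0.0085 with library size only and -0.016 with limma on either TPM scale over both sexes (-0.11 to 0.089 with a mouse left out). In females it was at -0.062 with library size only and -0.073 with limma on either TPM scale (-0.21 to 0.18). In males it was at 0.00019 with at least 10 reads in every liver, 0.018 with upper quartile scaling, 0.045 with library size only and 0.041 with limma on either TPM scale (-0.21 to 0.15). Between the sexes it was at -0.022 with limma on either TPM scale (-0.00018 to 0.23), and its interaction was at 0.0027 with upper quartile scaling, 0.11 with library size only and 0.11 with limma on either TPM scale (-0.23 to 0.19).

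Between the sexes Serpina1b was at -0.012 without rounding, -0.0052 with the length-scaled table, -0.013 with the scaled table, -0.0068 with no filter, -0.00032 with at least 10 reads in every liver, -0.00042 with relative log expression and with DESeq2, -0.017 with library size only, -0.11 with limma on either TPM scale and -0.099 within KO mice (-0.11 to 0.12 with a mouse left out). Serpina1d was at -0.058 with limma on either TPM scale and -0.077 within KO mice (-0.033 to 0.20). Within KO mice Serpina3c was at -0.45 and Serpina3g at 0.32, and within Het mice Serpina3k was at 0.66 (-0.18 to 0.074 over both genotypes with a mouse left out). With a mouse left out, the interaction ran from -0.39 to 0.030 for Serpina1b and from -0.38 to 0.048 for Serpina1d, and the change in females from -0.34 to 0.082 for Serpina1d. Serpina1e in females was at 0.43 with limma on log2(TPM + 1) and 0.47 on log2(TPM + 0.1) (-1.52 to 2.20 with a mouse left out). Over both sexes, with a mouse left out, Serpina3c ran from -0.0067 to 0.41, Serpina3g from -0.29 to 0.059, Serpina3f from -0.41 to 0.0070 and Serpina3h from -0.71 to 0.23. Serpina3i was at -0.038 with the length-scaled table, -0.035 with the scaled table and -0.016 with limma on log2(TPM + 1). The cause of these changes was not tested.

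With 3 mice a group, reads shared between near-identical Serpina1 copies and the low level of Serpina3c limit what these values show.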
